A study of Mus musculus with 24 samples.

Results

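The respiratory chain genes described here were the nuclear genes whose symbols name structural subunits of complexes I to V in mice with and without loss of a let-7 microRNA cluster (let-7a, -7f and -7d) in alveolar type 2 (AT2) cells. They were taken by symbol: Nduf genes of the a, b, c, s and v series, Sdha to Sdhd, Uqcr genes, Cox4 to Cox8 genes and Atp5 genes, leaving out symbols that end in -ps. Of 24970 gene symbols, 85 matched, 36 of complex I, 4 of complex II, 8 of complex III, 20 of complex IV and 17 of complex V. A gene was kept in a kind of sample when at least 2 of its libraries held at least 1 TPM, the unit of transcript abundance scaled for gene length and library total. That left 81 genes in sorted AT2 cells, 83 in whole lung at each time and 81 in organoids, and 80, 83, 83 and 81 of them could be tested. Cox7b2 and Cox8c, isoforms known from testis, were kept nowhere. Ndufa4 and Ndufa4l2 carry a complex I name but were counted with complex IV, where the NDUFA4 protein is now placed. The symbols also took in 4 genes that are not plain subunits, Cox7a2l, Atp5s, Ndufa4l2 and Ndufb4c, the last a processed pseudogene in GENCODE M21. These 4 stayed in the counts and sums of their complexes.

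Controls carried Sftpc-CreER/+ and R26-tdT/+, and knockouts carried let7afd-/- in addition, so all mice had the Cre driver, the tdTomato reporter and tamoxifen. The Sftpc promoter, active in AT2 cells, drives the Cre. Fresh flow-sorted AT2 cells were pooled from 3 mice per library and taken 6 days after tamoxifen, with 3 control and 3 knockout libraries. Whole lung came from 3 mice per genotype at 6 days and from 4 mice per genotype after 6 months with booster tamoxifen. AT2 organoids were grown for 14 days in AMM medium from cells of 2 mice per genotype, 6 days after tamoxifen.

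Complex I (NADH dehydrogenase) and complex II (succinate dehydrogenase) pass electrons to ubiquinone, complex III hands them to cytochrome c and complex IV (cytochrome c oxidase) to oxygen, while ATP synthase, complex V, uses the proton gradient that complexes I, III and IV build. Genes called core here include subunits that carry redox centres, Sdha to Sdhd, and the ATP synthase subunits Atp5a1 and Atp5b. Most other common subunits are called accessory. Several complex IV subunits exist in pairs of a common and a tissue-restricted isoform. AT2 cells make and recycle surfactant, an energy-demanding task. The subunits encoded in mitochondrial DNA were not analysed here.

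All 24 libraries were poly(A) selected without strand information, and the depth behind the TPM is unknown. Every library had 0 TPM for Mirlet7d, Mirlet7a-1 and Mirlet7f-1, the deleted genes, so these tables do not check the deletion. Sorted cells were rich in 10 AT2 markers, whose summed level was 245039 to 260476 TPM in controls and 157632 to 231174 TPM in knockouts, lowest in knockout 1. The 10 macrophage markers summed to 48.1 to 85.5 TPM in control and 178.6 to 324.1 TPM in knockout AT2 cells. Cardiac muscle markers, 13 genes, were at 2.5 to 6.3 TPM in sum in AT2 cells but at 1221 to 1898 TPM in control lungs at 6 days. In organoids the AT2 markers summed to 16271 and 49168 TPM in the controls and to 75609 and 83057 TPM in the knockouts, so the controls themselves differed. For 26 of the 85 genes an exon overlaps one of a gene on the opposite strand in GENCODE M21, and reads of such pairs cannot be told apart. Levels of genes with near-identical pseudogenes or paralogues are likewise uncertain.

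Few of these genes carry let-7 sites in their 3′ UTRs, which is why the microRNAs and the sites are shown. The seed, bases 2 to 8, is in capitals in the mature microRNAs (RefSeq, GRCm38.p6).
let-7a (chr13:48538239-48538260, minus strand): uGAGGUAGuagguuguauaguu
let-7d (chr13:48536078-48536099, minus strand): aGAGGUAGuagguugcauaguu
let-7f (chr13:48537889-48537910, minus strand): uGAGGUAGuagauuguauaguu
All of them share the seed GAGGUAG. Of 82 subunit genes with an annotated 3′ UTR of at least 50 bases, 0 held the 8mer CTACCTCA and 2 held a 7mer (CTACCTC or TACCTCA), which is 2.44% of them. Over all 19884 listed genes with such a UTR, 3.68% held the 8mer and 16.8% a 7mer or the 8mer, but the median UTR was 272 bases in the subunit genes and 1145 bases in all genes. Both matches are printed with the match in capitals, at position 372 of 627 bases of the UTR in Cox7b and 610 of 1302 in Ndufa10.
Cox7b: cttactgccctCTACCTCgtggttatatt
Ndufa10: accattccggtCTACCTCccagaaatcac
Cox7b, a small complex IV subunit on chromosome X, and Ndufa10, a complex I subunit, both rose in knockout lung at 6 months (values with that comparison), where 15.9% of all genes rose. Neither passed in AT2 cells, in lung at 6 days or in organoids. In organoids Cox7b had 407 and 382 TPM in controls and 307 and 319 TPM in knockouts. Ndufa10 went the other way there, with 92.5 and 71.1 TPM against 115 and 114 TPM.

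Promoters are shown because the nuclear subunit genes are known for shared sites of NRF1 and of ETS factors such as GABPA. Those of Cox8a and Cox8b are set side by side as 1 pair of a common and a tissue isoform. In 66 of the 85 genes with a RefSeq promoter (GRCm38.p6, 250 bases before to 50 after the start), both strands were searched. The NRF1 motif (GCGCA, any base, then GCGC) was in 17 (25.8%, against 5.19% of 27025 promoters), the ETS motif CCGGAAG in 16 (24.2% against 9.93%) and the YY1 motif AAGATGGC in 9 (13.6% against 3.19%). At least 1 of the 3 was in 36 promoters (54.5% against 16.39%). Matches are in capitals, on either strand, and the NRF1 motif includes its reverse complement.
Uqcrc1 (chr9:108936398-108936697, plus strand): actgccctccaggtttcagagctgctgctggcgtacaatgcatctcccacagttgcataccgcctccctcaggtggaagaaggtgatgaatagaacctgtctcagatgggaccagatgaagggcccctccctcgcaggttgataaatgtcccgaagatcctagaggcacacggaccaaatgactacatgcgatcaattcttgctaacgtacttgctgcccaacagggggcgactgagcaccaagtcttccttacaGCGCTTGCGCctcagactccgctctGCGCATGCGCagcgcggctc
Sdhd (chr9:50603800-50604099, minus strand): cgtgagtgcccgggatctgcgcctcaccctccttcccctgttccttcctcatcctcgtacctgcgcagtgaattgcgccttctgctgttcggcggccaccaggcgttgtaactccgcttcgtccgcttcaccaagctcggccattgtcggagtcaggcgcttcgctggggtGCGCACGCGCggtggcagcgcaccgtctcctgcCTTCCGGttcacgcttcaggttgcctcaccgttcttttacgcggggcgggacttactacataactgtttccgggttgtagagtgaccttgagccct
Cox8a (chr19:7217567-7217866, minus strand): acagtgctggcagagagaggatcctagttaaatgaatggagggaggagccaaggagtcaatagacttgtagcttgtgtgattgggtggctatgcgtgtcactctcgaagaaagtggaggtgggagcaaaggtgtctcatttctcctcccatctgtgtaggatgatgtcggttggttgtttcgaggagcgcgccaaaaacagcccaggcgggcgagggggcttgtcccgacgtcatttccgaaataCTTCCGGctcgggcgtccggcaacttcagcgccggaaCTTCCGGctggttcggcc
Cox8b (chr7:140900397-140900696, minus strand): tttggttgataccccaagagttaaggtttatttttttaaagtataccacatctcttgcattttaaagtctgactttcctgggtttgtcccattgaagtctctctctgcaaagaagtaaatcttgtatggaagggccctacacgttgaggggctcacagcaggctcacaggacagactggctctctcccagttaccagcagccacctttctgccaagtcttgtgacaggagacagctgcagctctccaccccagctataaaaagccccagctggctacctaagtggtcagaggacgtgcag
Uqcrc1 of complex III held 2 NRF1 matches, Sdhd of complex II held 1 NRF1 and 1 ETS match, and Cox8a, the common isoform of complex IV subunit 8, held 2 ETS matches. No match to these letters was found in the window of Cox8b, its muscle and brown fat isoform. Such a lack does not mark a tissue isoform, since matches were few in the 14 complex IV promoters. There the NRF1 motif was in 1, the ETS motif in 3 and the YY1 motif in 0.

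In knockout AT2 cells at 6 days, 6 of 80 subunit genes rose and none fell. They came from all 5 complexes: Ndufa9 and Ndufs1, Sdhd, Uqcrc1, Cox5b and Atp5f1. That is 7.5% of the genes, against 6.62% of 12109 genes tested that rose (7.85% changed in either direction), so the share that passed was close to the background (limma on log2(TPM + 1), Benjamini-Hochberg adjusted p under 0.05). At an unadjusted p under 0.05 there were 28 of 80, against 27.2% of all genes. Without a threshold the picture was broader: 71 of 80 log2 fold changes were above 0 (88.8%, against 63.5% of all genes), with a median of 0.16 against 0.08. Knockout values lay wholly above control values in 41 genes (51.2%, against 25.4% of all genes) and wholly below in 2 (8.31% of all genes). The shift was not particular to the subunit genes. Of 78 mitochondrial ribosomal protein genes 68 were above 0 (median 0.15), and of 82 cytosolic ones 65 (median 0.12).

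**Figure D1:**
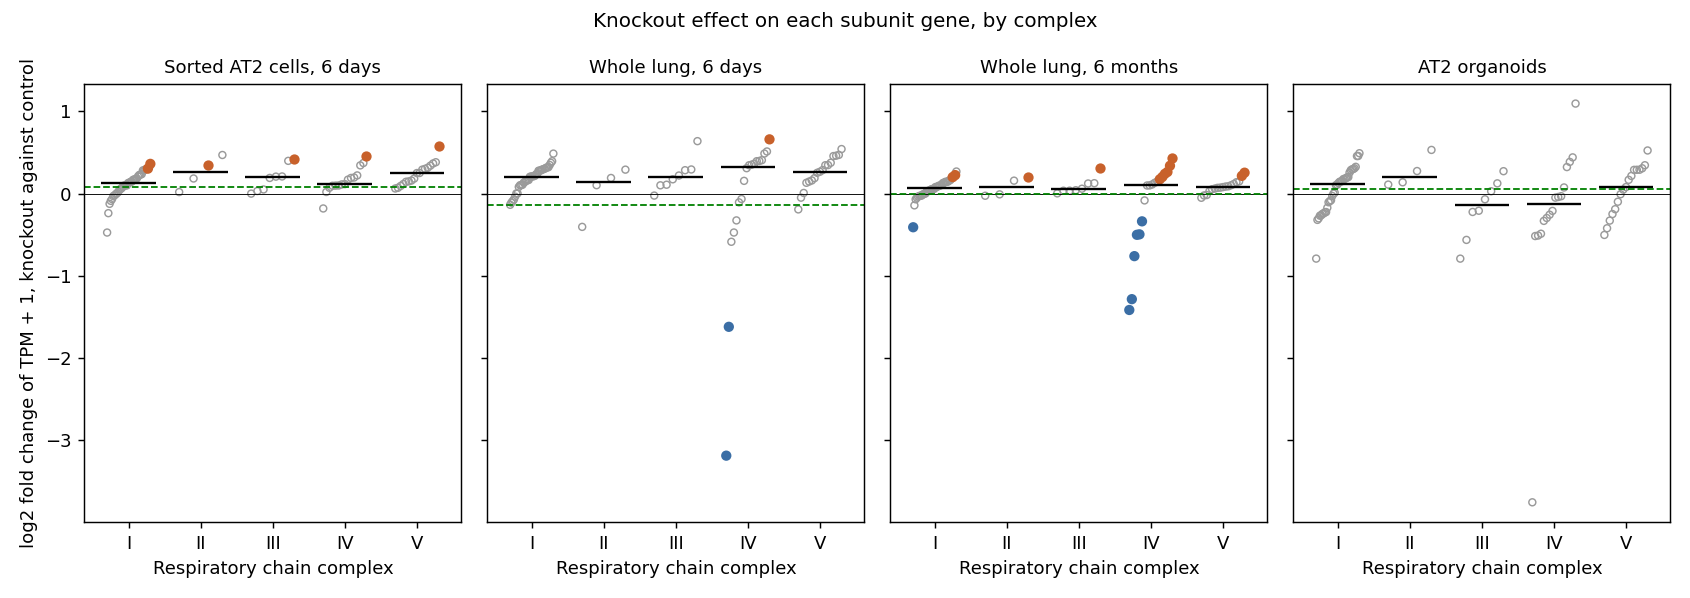
Each point is a subunit gene in its complex (x axis), with the log2 fold change of TPM + 1 of knockout against control on the y axis, in the 4 kinds of sample. Filled points passed at an adjusted p under 0.05 (orange higher, blue lower), black bars are medians of a complex and the green dashed line is the median of all genes tested. Complex IV in lung holds both the highest and the lowest filled points.

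Atp5f1, the subunit b of the ATP synthase stalk, had 284, 266 and 288 TPM in the controls and 418, 386 and 448 TPM in the knockouts. The groups did not overlap, and the log2 fold change was 0.58 ± 0.09 (SE; adjusted p = 0.0134). Cox5b, a zinc-binding subunit of complex IV, had 327, 329 and 340 TPM against 490, 426 and 457 TPM. Every knockout value was above every control value, and the log2 fold change was 0.46 ± 0.09 (adjusted p = 0.024). For Uqcrc1, a large matrix-side protein of complex III without a redox centre, the values were 105, 108 and 115 TPM against 153, 128 and 160 TPM. Knockout 2 was the lowest of the knockouts yet above all controls, as it was for Sdhd and Cox5b, and the log2 fold change of Uqcrc1 was 0.42 ± 0.10 (adjusted p = 0.0418).

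Sdhd, a membrane anchor of complex II, had 91.5, 89.7 and 101 TPM in controls and 127, 112 and 122 TPM in knockouts (log2 fold change 0.35 ± 0.08, adjusted p = 0.0452). Ndufa9, an accessory subunit of complex I, went from 107 ± 5.72 to 138 ± 7.60 TPM (SD, n = 3 each; limma adjusted p = 0.036). Ndufs1, which carries iron-sulfur clusters of complex I, went from 52.4 ± 2.68 to 65.0 ± 2.89 TPM (limma adjusted p = 0.0496). None of these 6 genes overlapped between genotypes. They were picked by their p on the same values, and 25.4% of all genes also lay wholly above control. Sdhb, the iron-sulfur subunit of complex II, missed the threshold with 108, 121 and 114 TPM against 183, 133 and 163 TPM (log2 fold change 0.47 ± 0.12, adjusted p = 0.0535).

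Among the other well-known subunits, the catalytic ATP synthase subunit Atp5b had a log2 fold change of 0.38 (adjusted p = 0.0821) and its partner Atp5a1 one of 0.25 (adjusted p = 0.139). In complex IV, Cox5a, the partner of Cox5b, had 0.37 (adjusted p = 0.0682), Cox6c 0.19 and Cox4i1 0.11. Values in complex I and III were 0.23 for the flavoprotein Ndufv1 and 0.21 for the Rieske protein Uqcrfs1. Sdha, the flavoprotein of complex II, stood at 0.02. None of these passed. By complex, the medians were 0.13, 0.27, 0.20, 0.12 and 0.25 for complexes I to V, and all 17 tested genes of complex V were above 0.

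Single libraries decided which AT2 calls were made. The count of 6 became 1, 0 and 1 without control 1, 2 and 3, and 2, 10 and 1 without knockout 1, 2 and 3, and none fell in any of these fits. Knockout 1 also stood apart in other ways: cytosolic ribosomal protein genes held 14.17% of its TPM against 7.77 to 9.08% in the other 5 libraries, and the subunit genes 2.413% against 1.962 to 2.187%. Scaling the libraries to one another lowered the median value. By median ratios 2 genes passed, Atp5f1 and Cox5b, and 58 of 80 values were above 0, while 67.3% in place of 84.4% of all calls were higher, and by quantiles the same 2 genes passed, with 59 above 0 and 65% of calls higher. Macrophage markers moved with the genotype in the sorted cells (6 of 8 tested rose), as did erythrocyte markers, of which 2 of 3 tested rose, with sums of 81.3 to 160.0 TPM in controls and 285 to 481 TPM in knockouts, and their part in the subunit values was not tested.

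Whole lung at 6 days gave 1 higher and 2 lower genes of 83, all in complex IV. Cox5a rose, and the muscle isoforms Cox8b and Cox7a1 fell. That is 1.2% higher and 2.41% lower, against 3.16% and 3.79% of 14154 genes tested. At an unadjusted p under 0.05 there were 21 of 83, against 25.2% of all genes. Again most values were above 0, 67 of 83 (80.7%, against 35.8% of all genes), with a median of 0.21 against -0.14. Knockout lay wholly above control in 40 genes (12.5% of all genes did) and wholly below in 6 (23.7% of all genes). Ribosomal protein genes had a like shift in these lungs. Of 81 cytosolic ones 75 were above 0 (median 0.23), and of 78 mitochondrial ones 66 (median 0.23).

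Cox5a, a matrix-side subunit of complex IV, had 232, 245 and 224 TPM in the controls and 335, 353 and 427 TPM in the knockouts. All knockouts were above all controls, knockout 3 most, and the log2 fold change was 0.66 ± 0.14 (adjusted p = 0.0293). Its partner Cox5b had 264, 266 and 267 TPM against 303, 384 and 446 TPM and did not pass (0.49 ± 0.16, adjusted p = 0.105). Atp5f1 likewise did not pass, with 191, 207 and 167 TPM against 219, 247 and 327 TPM (adjusted p = 0.145). In each of these genes the highest value was that of knockout 3. Uqcrq of complex III (0.64, adjusted p = 0.0591), Atp5e of complex V (0.54, adjusted p = 0.0781) and Cox6a1 (0.37, adjusted p = 0.0913) did not pass either, and these 3 were chosen after their values were seen.

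Cox8b had 46.6, 20.0 and 37.2 TPM in control lungs and 0.629, 5.31 and 3.95 TPM in knockout lungs. No knockout reached a control, and the log2 fold change was -3.19 ± 0.51 (adjusted p = 0.0134). Cox7a1, the heart and muscle isoform of subunit 7a, had 43.5, 42.6 and 22.9 TPM against 7.07, 8.71 and 19.4 TPM. The groups came close, since control 3 was low and knockout 3 high, and the log2 fold change was -1.62 ± 0.38 (adjusted p = 0.0433). Cox6a2, a muscle isoform too, had 79.5, 67.6 and 64.7 TPM against 42.1, 55.1 and 43.4 TPM, with no overlap, and missed the threshold (-0.58 ± 0.16, adjusted p = 0.0713).

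Markers of heart muscle moved with these isoforms. All 13 cardiac markers fell, and their summed level was 1898, 1286 and 1221 TPM in the controls against 152, 293 and 328 TPM in the knockouts. White fat markers fell too, 3 of 3 tested, as did 2 of 3 tested brown fat markers, a list that holds Cox8b itself. Other cell types moved in the same lungs, beside the rise of Cox5a and the many values above 0: macrophage markers rose in 5 of 10 cases and fell in 1, from sums of 1466 to 1530 TPM to 4112 to 13834 TPM, club cell markers fell in 3 of 3, from 149806 to 173510 TPM to 69838 to 86197 TPM, and ciliated cell markers fell in 2 of 6. Of the 10 AT2 markers, Sftpc and Etv5 fell and Sftpd rose, and their summed level went from 47804 to 54848 TPM to 29942 to 38305 TPM. Cox8b was below 1 TPM in all sorted AT2 and organoid libraries, so the 6-day AT2 data give no matching value for it. The part of these cells in the subunit values was not tested, and in bulk tissue fewer cells of a type and less RNA per cell cannot be told apart.

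**Figure D2:**
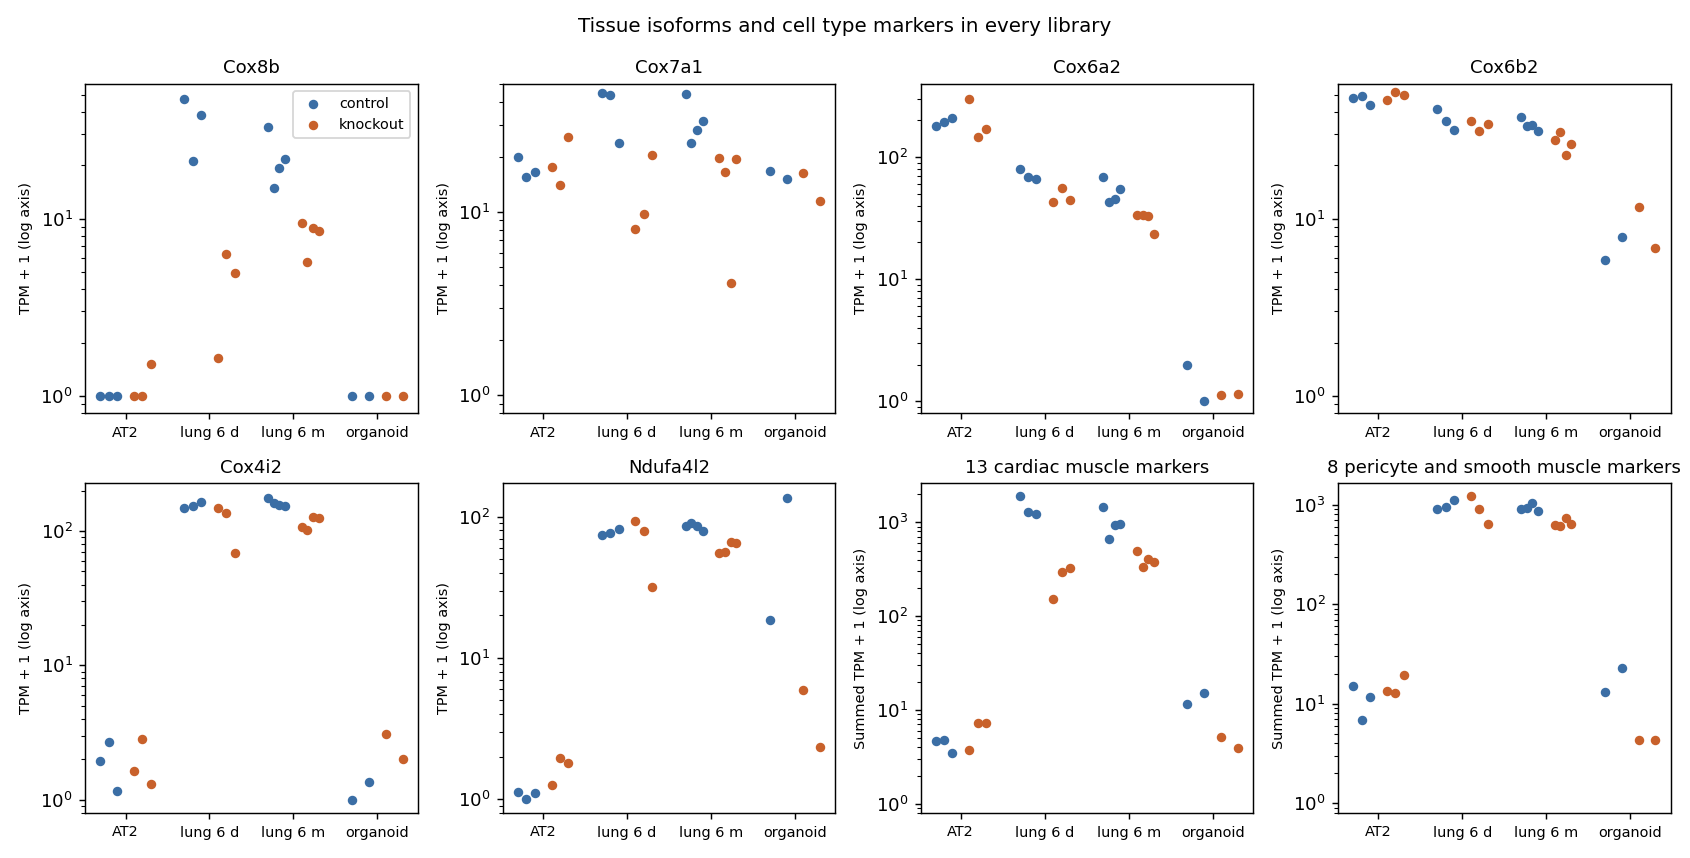
Points are libraries, controls blue and knockouts orange, in the 4 kinds of sample on the x axis, and the y axes give TPM + 1 on a log scale for 6 tissue isoforms and the summed TPM + 1 of the cardiac and the pericyte and smooth muscle markers. Cox8b and Cox7a1 are lower in knockout lung, as are the cardiac marker sums, while Cox6a2 is highest in sorted AT2 cells.

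The remaining tissue isoforms did not pass at 6 days. Cox4i2, an isoform known for its lung expression and response to oxygen, had 146, 154 and 163 TPM in controls and 147, 136 and 68.0 TPM in knockouts (adjusted p = 0.309). Ndufa4l2, a hypoxia-induced paralogue of Ndufa4, had 72.9, 76.0 and 80.3 TPM against 92.7, 77.7 and 30.9 TPM (adjusted p = 0.587). Both low values belong to knockout 3, where Sdha was also low at 84.9 TPM against 126 to 149 TPM in the other 5 libraries (log2 fold change -0.40, adjusted p = 0.211). That library held 8.48% of its TPM in erythrocyte markers, against 0.88 to 4.54% in the others, and its endothelial marker sum was 847 TPM against 1552 to 2325 TPM. Cox6b2, known from testis, stood at -0.11.

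No core subunit passed at 6 days, and their values ran from -0.40 for Sdha to 0.31 for Ndufv2. Of the panel, Atp5b had 0.01, Atp5a1 -0.05, Ndufv1 -0.09, Ndufs1 -0.13, Sdhb 0.10 and Uqcrfs1 0.10, and among accessory subunits Uqcrc1 had 0.11 and in complex IV Cox4i1 had 0.31 and Cox6c 0.35, none of them passing. As a class, 14 core genes had a median of 0.10, 60 accessory genes one of 0.28 and 6 tissue isoforms one of -0.53, with all 6 below 0 (5 of 6 under median-ratio scaling). Leaving out libraries changed the calls: 0 higher and 0 lower without control 1 or control 3, 0 and 1 without control 2 or knockout 2, 3 and 1 without knockout 1, and 4 and 2 without knockout 3. Median-ratio and quantile scaling moved the median of all genes by 0.14 and 0.12, left Cox8b as the only subunit gene past the threshold, and kept 76 and 62 of 83 subunit values above 0.

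At 6 months whole lung gave the largest number of calls among the 4 comparisons, 12 higher and 7 lower of 83 subunit genes. These are 14.5% and 8.43%, against 15.9% and 13.9% of 14177 genes tested (29.8% in either direction; at an unadjusted p under 0.05, 31 of 83 against 39.4%), so neither share was above the background. Complex IV held 12 of the 19 calls: 6 common subunits rose and 6 tissue isoforms fell. Complexes I, II, III and V gave 2, 1, 1 and 2 higher genes, and the 1 lower gene outside complex IV was Ndufa5. Over all members the median was 0.08 against -0.0048 for all genes, and 61 of 83 values were above 0 (73.5%, against 49.1%). Knockout lay wholly above control in 17 genes (16.4% of all genes) and wholly below in 7 (14.2%). Of 81 cytosolic ribosomal protein genes 59 were above 0 (median 0.05), and of 78 mitochondrial ones 48 (median 0.03).

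Cox5a had 202, 211, 189 and 199 TPM in the controls and 243, 295, 266 and 277 TPM in the knockouts. The groups were clearly apart, and the log2 fold change was 0.43 ± 0.06 (adjusted p = 0.000376). Cox5b had 272, 245, 239 and 226 TPM against 297, 300, 300 and 347 TPM, again without overlap (0.34 ± 0.07, adjusted p = 0.00323). Cox7b, which holds 1 of the let-7 matches, had 138, 124, 125 and 128 TPM against 148, 155, 153 and 153 TPM (0.24 ± 0.05, adjusted p = 0.0036). The common isoforms Cox8a (0.26, adjusted p = 0.00886), Cox4i1 (0.20, adjusted p = 0.0153) and Cox7a2 (0.18, adjusted p = 0.0301) rose by smaller amounts, Cox4i1 from 602 ± 23.7 to 694 ± 42.9 TPM (SD, n = 4 each).

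In ATP synthase, Atp5f1 had 171, 171, 174 and 174 TPM in controls and 204, 214, 204 and 201 TPM in knockouts. The 4 controls lay within a few TPM of one another and below all knockouts (0.26 ± 0.04, adjusted p = 0.000945). Atp5c1, the central stalk subunit gamma, rose by 0.22 ± 0.05 (adjusted p = 0.00794), while Atp5a1 (0.06) and Atp5b (0.07) did not pass. Complex I gave Ndufa10 (61.4, 61.5, 64.3 and 69.1 against 74.3, 76.6, 73.5 and 75.8 TPM; 0.23 ± 0.06, adjusted p = 0.00932) and Ndufa1 (0.20 ± 0.05, adjusted p = 0.0125), and its core subunits Ndufv1 (0.06) and Ndufs1 (0.03) did not pass. Sdhd rose by 0.20 ± 0.06 (adjusted p = 0.028) but Sdha (-0.01) and Sdhb (-0.02) did not pass, and in complex III the small subunit Uqcrq rose by 0.32 ± 0.09 (adjusted p = 0.0238), with Uqcrc1 at 0.06, Uqcrfs1 at 0.13 (adjusted p = 0.0694), and Cox6c of complex IV at 0.10.

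Ndufa5, an accessory subunit of the matrix arm of complex I, was the exception in its complex. It had 119, 114, 127 and 127 TPM in controls and 92.5, 95.0, 78.7 and 102 TPM in knockouts. The groups did not overlap, and the log2 fold change was -0.41 ± 0.08 (adjusted p = 0.00196). At 6 days Ndufa5 had 104, 97.7 and 81.5 TPM against 101, 110 and 106 TPM, which overlap.

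**Figure D3:**
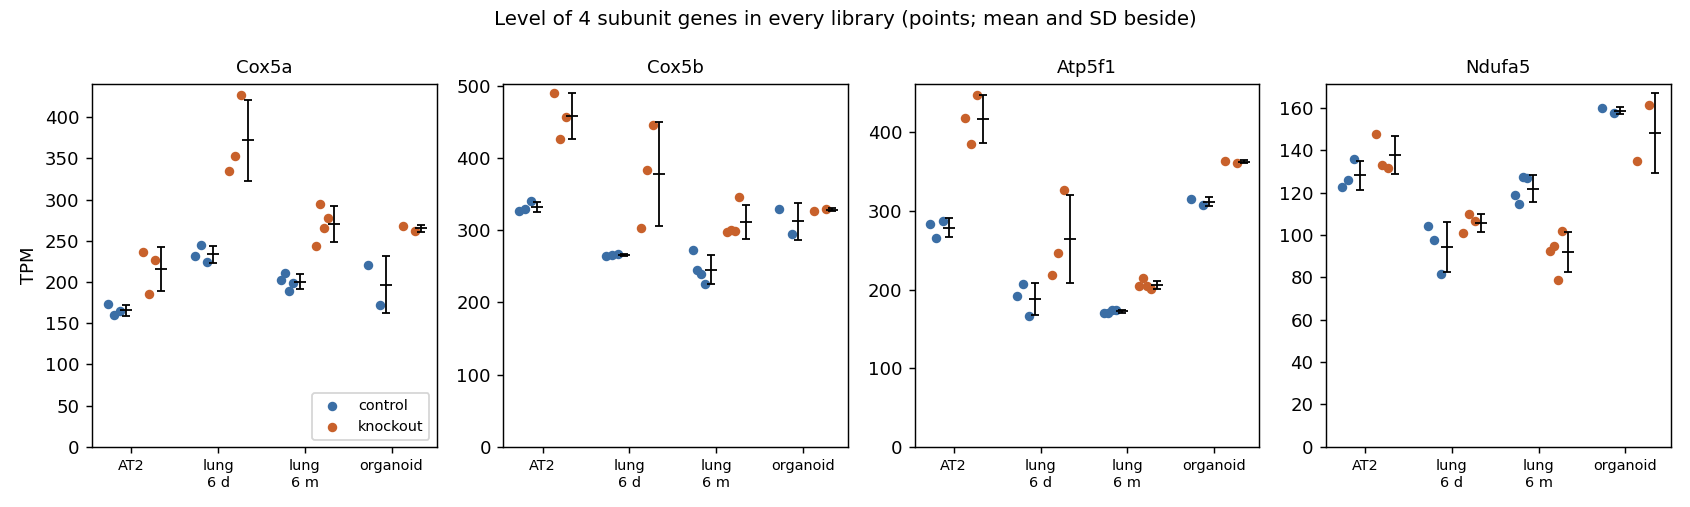
Points are the TPM of Cox5a, Cox5b, Atp5f1 and Ndufa5 in every library (controls blue, knockouts orange), and the bars beside them give the mean and SD of a group. Cox5a and Atp5f1 are above control in every knockout library of all 4 kinds of sample, and Ndufa5 is below control in lung at 6 months.

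All 6 tissue isoforms tested fell at 6 months. Cox8b had 31.7, 14.0, 18.4 and 20.6 TPM in controls and 8.45, 4.71, 7.86 and 7.51 TPM in knockouts (-1.41 ± 0.22, adjusted p = 0.000639). Cox6a2 had 67.2, 41.7, 44.7 and 53.7 TPM against 32.8, 32.8, 32.1 and 22.4 TPM (-0.76 ± 0.16, adjusted p = 0.00352). In both, every knockout was below every control. Cox7a1 had 42.8, 22.9, 27.0 and 30.6 TPM against 18.8, 15.6, 3.12 and 18.6 TPM (-1.28 ± 0.43, adjusted p = 0.0449). Its knockout 3 was far below the rest, and its call was lost without any 1 control or without knockout 2, with adjusted p of 0.0086 to 0.11 over the 8 fits that leave out a library.

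The other isoforms changed by less but with less spread. Cox4i2 had 174, 160, 155 and 153 TPM against 106, 100, 125 and 123 TPM (-0.50 ± 0.08, adjusted p = 0.000586). Ndufa4l2 had 85.4, 89.9, 84.6 and 78.2 TPM against 54.3, 55.6, 65.3 and 64.3 TPM (-0.49 ± 0.07, adjusted p = 0.000446). Both groups of values were apart, with knockouts 1 and 2 the lowest. Cox6b2 had 36.7, 32.4, 32.6 and 30.2 TPM against 26.8, 29.8, 21.9 and 25.5 TPM (-0.34 ± 0.10, adjusted p = 0.0212), a call lost without control 1 (adjusted p = 0.061).

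Markers of other cell types moved in the same lungs. Cardiac markers fell in 12 of 13 cases, from sums of 661 to 1452 TPM to 332 to 497 TPM. Brown fat markers, a list that holds Cox8b itself, fell in 2 of 3 tested, from sums of 19.9 to 36.5 TPM to 9.34 to 14.0 TPM. White fat markers fell in 1 of 3 tested and fibroblast markers in 2 of 5. Pericyte and smooth muscle markers summed to 856 to 1045 TPM in controls and 613 to 727 TPM in knockouts. Of these 8 markers 3 fell and 5 did not pass. Endothelial markers fell in 5 of 6 cases and macrophage markers rose in 8 of 10 and fell in 1, from sums of 586 to 812 TPM to 5312 to 8745 TPM. AT2 markers rose in 7 of 10 cases, from sums of 29468 to 31460 TPM to 40463 to 49072 TPM. Club cell markers fell in 3 of 3, from 173601 to 217052 TPM to 96852 to 111555 TPM, and ciliated cell markers in 5 of 6. Their part in the subunit changes was not tested.

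Written as a share of the summed isoform pair, Cox4i2 made up 20.2 to 21.7% of Cox4i1 plus Cox4i2 in control lungs and 12.5 to 16.3% in knockout lungs at 6 months. Cox7a1 made up 11.95 to 18.6% of its pair with Cox7a2 in controls and 1.64 to 8.81% in knockouts, and Cox6a2 6.95 to 9.97% of its pair with Cox6a1 against 3.30 to 5.27%. Cox8b made up 2.52 to 5.03% against 0.708 to 1.31% at 6 months, and 3.58 to 9.38% against 0.0994 to 0.80% at 6 days. For Ndufa4l2 the share was 14.2 to 15.9% against 10.2 to 13.3% at 6 months. None of these ranges overlapped between genotypes, whereas the Ndufa4l2 share at 6 days did, with 11.9 to 14.8% against 4.65 to 15.5%. Ndufa4 itself, at 474 ± 14.3 and 449 ± 32.5 TPM (SD, n = 4), did not pass (limma adjusted p = 0.324).

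Some tissue isoforms were also present outside whole lung. Of Cox6a2, sorted control AT2 cells held 179, 192 and 206 TPM, 16.0 to 16.7% of its pair with Cox6a1, although the 13 cardiac markers together reached at most 6.3 TPM there and 3 of them were at 0 in all 6 AT2 libraries. Organoids held 0.964 and 0 TPM of it in controls and 0.133 and 0.137 TPM in knockouts. Cox6b2 had 46.7, 48.2 and 42.9 TPM in control AT2 cells, 7.86 to 9.80% of its pair with Cox6b1, and 40.8, 34.5 and 30.8 TPM in control lungs at 6 days, 4.88 to 6.17% of the pair. Tables were normalised apart, so these levels are set side by side without a test. Cox6a2 shares 70 exon bases with Itgad on the opposite strand, and Itgad was at 0 TPM in all AT2 libraries. Between genotypes in AT2 cells the values were 179, 192 and 206 TPM against 299, 146 and 170 TPM, which overlap (0.02, adjusted p = 0.965), with knockout 1 above all others.

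The number of calls at 6 months, 19 with all libraries, depended on the library left out. It ran from 9 to 15 for higher and from 5 to 7 for lower genes. Among the higher calls, Sdhd, Cox7a2 and Uqcrq were each lost in 3 or more of those 8 fits. Scaling mattered more for the small rises: median-ratio scaling gave 9 higher and 6 lower genes, and quantile normalisation gave 3 higher (Atp5f1, Cox5a and Ndufa10) and 9 lower, with 30 of 83 values above 0. Over all genes quantile normalisation turned the share of higher calls from 53.5% to 42.6%. The 6 tissue isoforms were below 0 under both scalings, with 5 of 6 passing under each.

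In AT2 organoids 0 of 81 subunit genes passed, with limma and 2 cultures per genotype, and 24 had an unadjusted p under 0.05. Of all 12406 genes tested, 0.218% rose and 0.387% fell, 0.605% in all, and 36.5% had an unadjusted p under 0.05. Values above and below 0 were about even, 44 of 81 above (54.3%, against 54.9% of all genes), with a median of 0.05 against 0.06. Knockout lay wholly above control in 37 genes and wholly below in 26, against 39.6% and 32% of all genes. The complexes differed in sign: medians were 0.12 for complex I, 0.21 for II, -0.14 for III, -0.13 for IV and 0.08 for V.

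Among the negative values in organoids, those with the smallest adjusted p, chosen after they were seen, belonged to small accessory subunits. Uqcrh, the hinge protein of complex III, had 1461 and 1680 TPM in controls and 933 and 880 TPM in knockouts (-0.79 ± 0.14, adjusted p = 0.0676). Uqcr10 of complex III had 612 and 614 TPM against 399 and 432 TPM (-0.56, adjusted p = 0.0701), and Ndufa6 of complex I had 400 and 488 TPM against 269 and 242 TPM (-0.79, adjusted p = 0.0701). Cox6c (-0.51, adjusted p = 0.0735), Cox7c (-0.51, adjusted p = 0.0764), Cox8a (-0.49, adjusted p = 0.0758) and Atp5l (-0.50, adjusted p = 0.0758) followed. None of these 7 genes overlapped between genotypes. Their adjusted p on the same values picked them, and 32% of all genes also lay wholly below control.

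On the other side, Atp5e, the epsilon subunit of ATP synthase, had 592 and 598 TPM in controls and 870 and 844 TPM in knockouts (0.53 ± 0.11, adjusted p = 0.0706). Sdhb had 122 and 107 TPM against 166 and 165 TPM (0.53, adjusted p = 0.0721), and the complex I genes Ndufs6 and Ndufb7 each had 0.46 (adjusted p = 0.0746 and 0.0721). Core subunits were mostly positive, 12 of 14 above 0 with a median of 0.16: among them Atp5a1 had 0.29, Atp5b 0.29, Sdha 0.28, Ndufv1 0.26 and Ndufs1 0.15, and those below 0 were Ndufv2 at -0.17 and Uqcrfs1 at -0.07. The accessory subunit Uqcrc1 had 0.27. Atp5f1 (0.22, adjusted p = 0.19), Cox5a (0.44, adjusted p = 0.127), Ndufa4 (0.32) and Cox4i1 (-0.03) did not pass either. Across the 81 genes Spearman's rho of the log2 fold change with the control level was -0.34, against -0.07 in AT2 cells, 0.36 in lung at 6 days and 0.14 at 6 months, given as a description over genes that share libraries.

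Ndufa4l2 had the widest range in organoids, 17.5 and 134 TPM in controls and 4.89 and 1.33 TPM in knockouts (-3.75 ± 1.08, adjusted p = 0.0947). The 2 controls differed from each other more than the lower one did from the knockouts on the TPM scale. Cox4i2 went the other way at very low levels, 0 and 0.348 TPM against 2.07 and 1.01 TPM (adjusted p = 0.0973). The count of organoid calls depended on both controls. A fit without 1 library leaves 1 in a genotype, so only medians of the log2 fold change are given. These were 0.028 and 0.061 without control 1 and 2, and 0.027 and 0.070 without knockout 1 and 2. In these fits the lone library of a genotype is assumed to vary like the others.

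**Figure D4:**
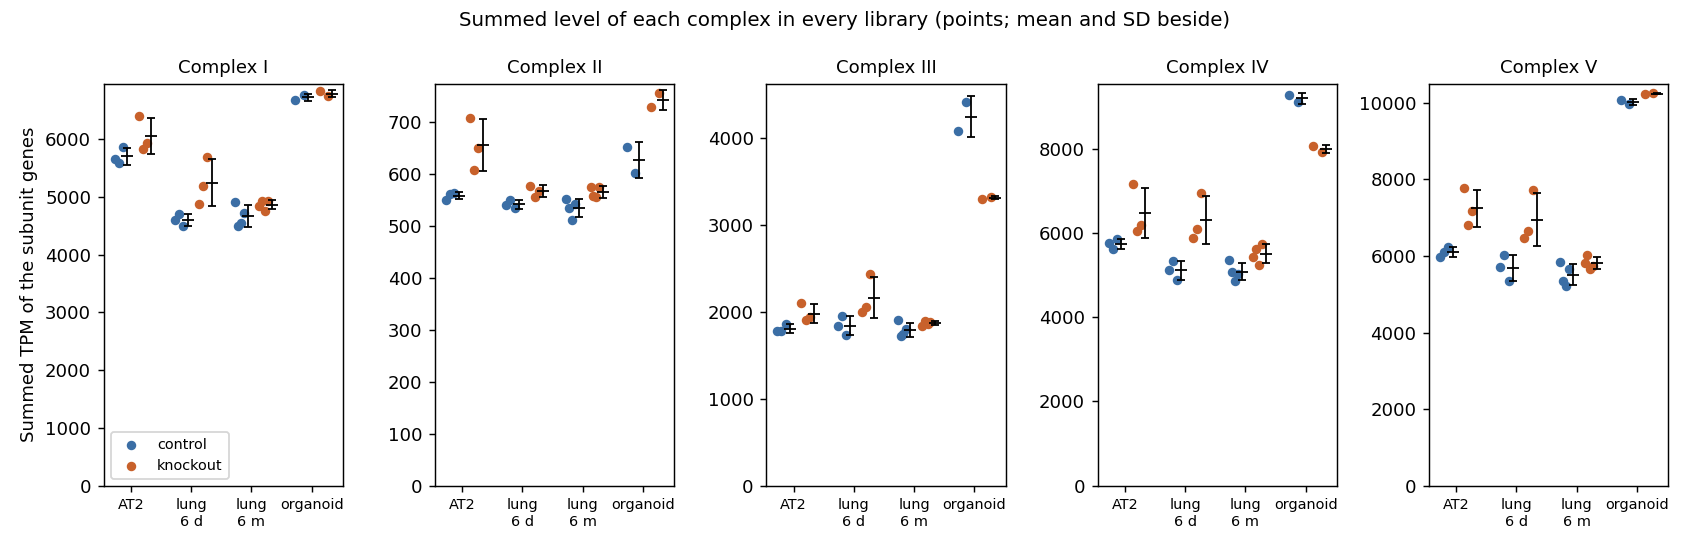
The y axis gives the summed TPM of the genes of each complex in every library (points, controls blue and knockouts orange), and the bars beside them give the mean and SD of a group. Organoid knockouts are lower in the sums of complexes III and IV and higher in complex II, and in lung at 6 days every knockout sum is above every control sum. The most abundant genes weigh most in a sum. In AT2 cells that holds for complexes II to V, while in complex I knockout 2 lies among the controls.

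Summed over its 8 genes, complex III held 4072 and 4411 TPM in organoid controls and 3296 and 3320 TPM in knockouts. Most of that difference lay in Uqcrh, with means of 1571 and 907 TPM, and Uqcr10, with 613 and 415 TPM. Of the 8 log2 fold changes, 3 were above 0 and 5 below. Complex IV held 9279 and 9098 TPM against 8056 and 7924 TPM, and complex II 652 and 603 TPM against 728 and 756 TPM. Complexes I and V kept nearly the same sums in both genotypes, 6681 to 6825 TPM and 9959 to 10248 TPM. In AT2 cells the complex V sum was 5968, 6092 and 6248 TPM in controls and 7773, 6817 and 7165 TPM in knockouts, and in lung at 6 days it was 5708, 6015 and 5342 TPM against 6473, 6641 and 7734 TPM. At 6 months the ranges of that sum overlapped, with 5226 to 5832 TPM and 5668 to 6018 TPM.

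Whether the knockout effect itself differed was tested as a contrast of log2 fold changes in 1 limma model over both tables. Between lung at 6 months and at 6 days, 0 of 83 subunit genes differed (5 at an unadjusted p under 0.05, smallest adjusted p 0.122), against 1.9% of all 13875 genes (1.72% higher at 6 months). Between sorted AT2 cells and lung at 6 days, 0 of 80 differed (6 unadjusted, smallest adjusted p 0.13), against 0.204% of 11766 genes. So the fall of Ndufa5 and Cox4i2 at 6 months was not shown to differ from their values at 6 days.

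Between organoids and sorted AT2 cells, 7 of 79 subunit genes differed, all lower in organoids. That is 8.86%, against 6.61% of 11351 genes that were lower, 4.48% that were higher and 11.1% in either direction. They were Uqcrh (difference -0.79 ± 0.15), Cox7c (-0.73 ± 0.18), Cox6c (-0.71 ± 0.15), Cox8a (-0.68 ± 0.18), Atp5l (-0.66 ± 0.16), Cox7a2 (-0.60 ± 0.17) and Uqcr10 (-0.59 ± 0.16), with adjusted p between 0.0141 and 0.0495. Uqcrh had 319, 316 and 320 TPM in control and 322, 323 and 311 TPM in knockout AT2 cells, which overlap (0.00), so its difference came from the organoid values. Cox7a2, by contrast, had 0.34 in AT2 cells (adjusted p = 0.0644) and -0.26 in organoids (adjusted p = 0.196). The count ran from 0 to 24 over the fits that leave out 1 library.

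**Figure D5:**
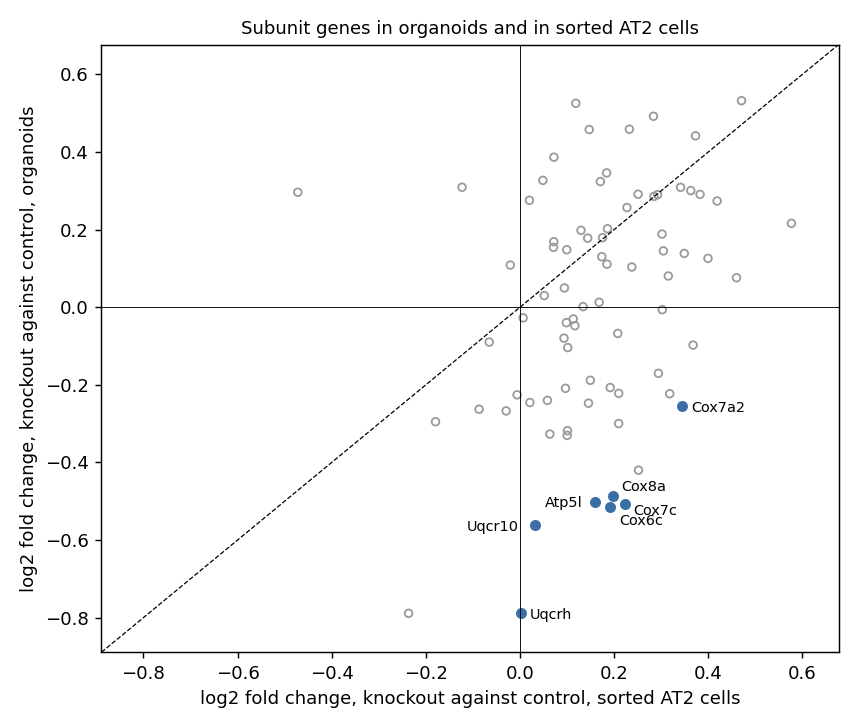
Each point is a subunit gene, with its log2 fold change of TPM + 1 (knockout against control) in sorted AT2 cells on the x axis and in organoids on the y axis, and the dashed line marks equal values. The 7 labelled blue points are the genes whose difference passed, and all lie under the line.

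Genes that work with the complexes were taken from lists of subunits and carriers that the symbol rule leaves out, assembly factors, the tricarboxylic acid cycle, mitochondrial ribosomal proteins, regulators of mitochondrial biogenesis and cytosolic ribosomal proteins. In AT2 cells 4 of 12 subunits and carriers rose, against 6.62% of all genes: Slc25a4, the ADP/ATP carrier (181 ± 8.95 to 255 ± 24.2 TPM, limma adjusted p = 0.0245), Etfa (0.39, adjusted p = 0.0319), the cytochrome Cyc1 (0.43, adjusted p = 0.0392) and the complex I acyl carrier Ndufab1 (0.49, adjusted p = 0.0471). Of 78 mitochondrial ribosomal protein genes 7 rose, among them Mrps18b (0.56), Mrpl1 (0.63) and Mrps22 (0.50). Dld of the tricarboxylic acid cycle (0.34, 1 of 14), the assembly factor Ndufaf7 (0.39, 1 of 16 for complex I) and Gabpb1, a partner of GABPA (0.37, 1 of 12 regulators), rose as well. No gene of these lists fell, and 0 of 82 cytosolic ribosomal protein genes passed. Each of these 10 named calls was lost in 4 or more of the 6 fits that leave out a library.

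In lung at 6 days, where 3.16% of all genes rose and 3.79% fell, the only calls in these lists were Mrpl12 (0.55, adjusted p = 0.0459) and the cytosolic ribosomal protein genes Rpl41 (0.65) and Rps2 (0.56), each lost in 4 or 5 of 6 such fits. At 6 months, where 15.9% of all genes rose and 13.9% fell, the carrier Ucp2 rose (597 ± 74.8 to 937 ± 88.6 TPM, SD, n = 4; limma adjusted p = 0.000322), as did Atpif1, the inhibitor of ATP synthase (62.0 ± 4.95 to 91.0 ± 8.26 TPM; adjusted p = 0.000342), and the ADP/ATP carrier Slc25a5 (0.28, adjusted p = 0.00104), while Etfa fell (-0.14, adjusted p = 0.0407). Assembly factors gave Tmem126a for complex I (0.40), Uqcc3 for complex III (0.23) and Cmc1 (0.58), Coa4 (0.50) and Coa5 (0.19) for complex IV, 3 of 22, and Fmc1 for complex V fell (-0.46, adjusted p = 0.00133). Ogdh rose (0.28) and Suclg2 fell (-0.25) in the tricarboxylic acid cycle. Of the regulators, Esrra rose (0.25) and Ppargc1a, the coactivator PGC-1alpha, fell at low levels from 2.91 ± 0.597 to 1.74 ± 0.359 TPM (limma adjusted p = 0.0249). Mitochondrial ribosomal protein genes passed in 2 of 78 cases, Mrps34 and Mrpl40 (both 0.23), and cytosolic ones in 6 of 81, both under the 15.9% of all genes, led by Rpl23 (0.21), Rps27l (0.20) and Rps2 (0.32). Of these calls at 6 months, Etfa, Coa5, Esrra, Mrps34, Mrpl40 and Suclg2 were each lost in 4 or more of the 8 fits that leave out a library, Uqcc3 in 3 and Ppargc1a in 2. In organoids 0 genes of any of these lists passed. The nearest was Slc25a4 at 270 and 239 TPM in controls and 461 and 453 TPM in knockouts (0.84, adjusted p = 0.06).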

How the data were processed

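Poly(A) RNA was sequenced from 24 mouse libraries. The authors deposited 4 tables of TPM, 1 for each kind of sample, with 1 column per library. The genome build was GRCm38 per the submitters' processing notes, while for the aligner, quantifier and annotation the answer is: not given in the sources used here. The tables were normalised separately and keeps no read counts, so depth and counting error are unknown. From the 24972 rows, 2 with a repeated symbol were dropped, and 0 sample columns were unused.

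The values were taken as log2(TPM + 1), which understates the change of low genes, for symbols of at least 1 TPM in enough libraries. They were fitted in limma 3.58.1 (R 4.3.3) with a variance trend, and p-values were adjusted over all genes tested by Benjamini-Hochberg. Nothing beyond the pools and cultures named in the labels says how samples of a group are related, so p-values measure the spread between these samples. Differences between kinds of sample used 1 limma model with a variance level for each table. Sums, shares and figures came from Python 3.11.15, pandas 2.3.3 and matplotlib 3.10.9. The fits were tested on simulated data.

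Named were, per table and complex, up to 3 genes with the smallest adjusted p in each direction (all where 5 or fewer passed), a panel of 12 subunits (1 of them is not reported here), and the tissue isoforms with their partners. In other lists up to 3 passing genes in each direction were named. Other named subunit genes had passed in another kind of sample or were chosen after their values were seen, which is not said at each. The organoid values of Atp5e, Ndufs6 and Ndufb7 were chosen after they were seen. Members and lists were chosen with earlier results of these data known. Alternatives covered the pseudocount, the filter, scaling, the variance trend, a replicate block, membership, the spread and leaving out each library.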

Additional observations from a re-analysis of the deposited data

Results flagged for a closer look

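In 4 of 106 groups of 4 libraries checked, 1 library stood far from the others, and chance gives this in about 1 of 20 groups. All were in lung at 6 months. Cox5b had 347 TPM in knockout 4, against 297 to 300.3 TPM in the other knockouts, and Cox6a2 had 22.4 TPM in the same library, against 32.1 to 32.8 TPM. Sdha had 158 TPM in knockout 1, against 146 to 148 TPM in the others. The ADP/ATP carrier Slc25a5 had 350.4 TPM in control 4, against 335 to 338 TPM in the other controls.

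The knockout effect differed between organoids and sorted AT2 cells, by the test of the difference itself, in 7 subunit genes. That is 8.86% of 79, against 11.1% of all genes in either direction and 6.61% that were lower. With the replicate block 0 subunit genes differed. The organoid value minus the AT2 value, on the log2 scale, was -0.79 for Uqcrh, -0.73 for Cox7c, -0.71 for Cox6c, -0.68 for Cox8a, -0.66 for Atp5l, -0.60 for Cox7a2 and -0.59 for Uqcr10.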

How the results depend on the processing

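The TPM keep no depth, groups held 2 to 4 samples, and the AT2 and 6-day lung calls had adjusted p between 0.0134 and 0.0496. In AT2 cells the 6 higher calls became 2 with no filter, 2 with median-ratio scaling, 2 with quantile normalisation and 2 with no variance trend, and the median became 0.0785 and 0.0905 under these scalings. In lung at 6 days 1 gene was lower with no filter, with a 5 TPM filter, under either scaling and under the replicate block, 0 were higher under the last 3, and the median was 0.37 with median-ratio scaling. At 6 months quantile normalisation gave 3 higher genes and a median of -0.0360. The organoid median was 0.0399 with no filter or a 5 TPM filter, 0.0199 and 0.0319 under the scalings and 0.0805 for structural subunits only. With a shared spread 1 gene differed between the lung times and 12 between organoids and AT2 cells, where no filter gave 11, the replicate block 0 and each gene's own spread, chosen after seeing the data, 9. The cause was not tested.

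Leaving out 1 library, higher calls ran from 0 to 10 in AT2 cells, from 0 to 4 in lung at 6 days (lower 0 to 2) and from 0 to 19 in organoids (lower 0 to 16), with organoid medians of 0.0270 to 0.0700. Genes that differed ran from 0 to 2 between lung times, from 0 to 1 between AT2 cells and lung, and from 0 to 24 between organoids and AT2 cells.

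Signs changed only in named values that had not passed. With median-ratio scaling AT2 values were -0.0656 for Sdha, -0.0846 for Uqcrh, -0.0645 for Cox6a2, lung values at 6 days 0.0662 for Ndufv1, 0.0203 for Ndufs1, 0.11 for Atp5a1, 0.0488 for Cox6b2. With quantile normalisation AT2 values were -0.0555 for Sdha, -0.0654 for Uqcrh, -0.0504 for Cox6a2, and the lung value at 6 days -0.13 for Atp5b. At 6 months it gave -0.0320 for Ndufv1, -0.00846 for Ndufs1, -0.0151 for Uqcrc1, -0.0552 for Cox6c, -0.0668 for Atp5a1, -0.0555 for Atp5b, and in organoids 0.12 for Cox4i1. Leaving out 1 library, AT2 values ran from -0.0285 to 0.0688 for Sdha, -0.00796 to 0.0192 for Uqcrh, -0.29 to 0.23 for Cox6a2. Lung values at 6 days ran from -0.63 to 0.15 for Ndufa4l2, -0.14 to 0.000550 for Ndufv1, -0.0956 to 0.0206 for Atp5a1, -0.0163 to 0.0303 for Atp5b, and at 6 months from -0.00452 to 0.0568 for Ndufs1, -0.0365 to 0.00646 for Sdha. Organoid values ran from -0.17 to 0.0305 for Uqcrfs1, -0.12 to 0.0612 for Cox4i1.

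Equal replicate numbers do not pair the samples: correlations of same-numbered deviations ran from -0.17 to 0.22. The replicate block gave 4 higher genes in AT2 cells, 14 higher and 7 lower at 6 months, and 0 in organoids.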
